A study of Mus musculus with 6 samples.

Results

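The brain's endocannabinoid system was described by 8 genes, taken by their symbols: the receptor gene Cnr1, the synthesis genes Dagla, Daglb and Napepld, and the breakdown genes Mgll, Abhd6, Abhd12 and Faah. All 8 were found among the 23282 entries of the count tables, and all 8 passed the filter on low counts that left 15239 genes for testing. The samples were forebrain RNA of C57BL/6J male mice aged 8 to 10 weeks. In the water avoidance stress (WAS) group, 3 mice stood for 1 h on a small platform surrounded by water, and in the control group 3 mice stood for 1 h on the same platform without water. The labels name no transgene or drug in either group. Olfactory bulbs and cerebellum were removed, and 1 hemisphere of each mouse gave 1 library of QuantSeq, a method that reads the polyadenylated end of each transcript.

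Endocannabinoids are lipid messengers that neurons make on demand from their own membranes. The best known are 2-arachidonoylglycerol (2-AG) and anandamide, the second of which belongs to the N-acylethanolamines together with palmitoylethanolamide. Released from the postsynaptic neuron, they travel backwards across the synapse to the CB1 receptor on the axon terminal, which lowers transmitter release, and enzymes on both sides of the synapse then hydrolyse them. The system is known to restrain the hormonal stress axis, and the study asked which transcripts and metabolites of the brain differ after a brief psychological stress.

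Each library held between 9248520 and 10502029 counts. Groups were taken from the sample labels, but the count columns were headed WC in the libraries labelled WAS and WS in the control libraries, letters that the sources used here do not define, so every direction given here would be the opposite under exchanged labels. The libraries labelled WAS also differed among themselves in region markers. The summed level of 8 striatal marker genes was 159 and 328 CPM (counts per 1000000 counts of the library) in WAS replicates 1 and 3, against 1707 CPM in WAS replicate 2 and 858 to 1206 CPM in the controls. The 10 thalamic and midbrain markers summed to 475 and 404 CPM in WAS replicates 1 and 3. They summed to 102 CPM in WAS replicate 2 and to 67.0 to 103 CPM in the controls. Gata3, Slc6a3 and Sox14 of this list were at 0 in WAS replicate 2. In control replicates 1, 2 and 3, Gata3 had 26, 9 and 1 counts. Slc6a3 had 0, 3 and 3 counts there, and Sox14 had 6, 0 and 2. The 7 markers of cortical and hippocampal projection neurons summed to 2786 to 3181 CPM in the libraries labelled WAS and to 3505 to 3620 CPM in the control libraries, without overlap. All 7 were lower, 4 with an unadjusted p under 0.05 by edgeR, and none was at 0. Astrocyte, oligodendrocyte, microglia, endothelial and interneuron markers overlapped between the groups, and choroid plexus markers ranged from 12.5 to 1228 CPM with low and high libraries in both. The 4 cerebellar markers summed to 96.9 to 136 CPM in the libraries labelled WAS and 118 to 126 CPM in the control libraries, nearly all from Calb1 and Pcp2, while Cbln3 had 6 to 10 counts and Gabra6 0 or 1 count in each library.

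None of the 8 genes passed an adjusted p of 0.05 by edgeR's quasi-likelihood test, and 0 of the 15239 genes tested did so (0%). One member, Mgll, the gene of the main 2-AG hydrolase, had an unadjusted p under 0.05, as did 1104 genes in all (7.24%), of which 518 were lower in the libraries labelled WAS (3.4%). Mgll was among the lower ones, at 0.756-fold of the control level. For the other 7 members the 95% interval of the difference spanned 0. None of the members met the fold change of at least 1.5 together with an unadjusted p under 0.05, which 380 genes met (2.49%). The log2 fold change was below 0 for 6 of the 8 members, compared with 49.8% of all genes tested, and the median was -0.12 for the members and 0.00088 for all genes.

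**Figure D1:**
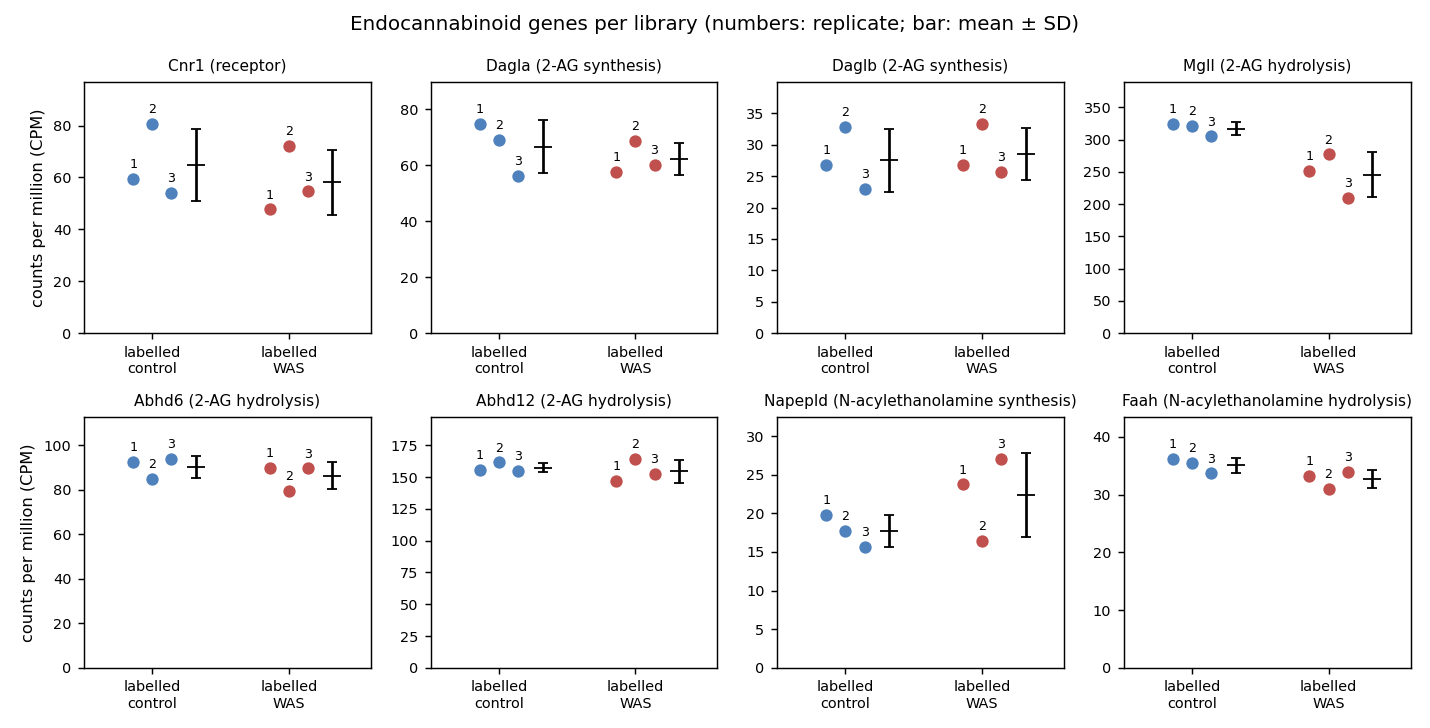
Level of each of the 8 genes in CPM (vertical axes from 0) in the 3 libraries labelled control (blue) and the 3 labelled WAS (red). Numbers beside the points are replicate numbers and bars are mean ± SD. The groups are apart for Mgll, with 209 to 277 CPM in the WAS libraries and 305 to 324 CPM in the controls, and overlap for the other 7 genes.

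Because each transcript gives reads from its 3′ end alone, these counts do not grow with transcript length, and the levels of different genes were set side by side as CPM. The order also depends on how fully the annotation used in counting covers each gene's 3′ end, which was not tested, and the dopamine receptor gene Drd2 was at 0 or 1 count in every library. Over the 6 libraries Mgll was the most abundant member at a mean of 281 CPM, followed by Abhd12 at 156 CPM, Abhd6 at 88.3 CPM, Dagla at 64.4 CPM, Cnr1 at 61.4 CPM, Faah at 33.9 CPM, Daglb at 28.1 CPM and Napepld at 20.1 CPM. Mgll, Abhd12, Abhd6 and Dagla followed each other in this order in all 6 libraries with no overlap of their ranges. Dagla and Cnr1 overlapped, with Dagla the higher in 4 of 6 libraries, and Cnr1 lay above Faah in all 6. Faah lay above Daglb in 5 of 6 libraries and Daglb above Napepld in 5 of 6, and the ranges of both pairs overlapped. In the last 500 bases of the longest annotated transcript of each member, no stretch of 50 bases was shared with a transcript of another gene and no annotated exon of another gene overlapped on either strand.

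Cnr1 encodes CB1, the receptor through which 2-AG and anandamide act at axon terminals, and lies on mouse chromosome 4 (positions 33923171 to 33948831, build GRCm38). It stood at 47.7, 72.0 and 54.6 CPM in WAS replicates 1, 2 and 3 and at 59.4, 80.5 and 54.1 CPM in control replicates 1, 2 and 3. Replicate 2 was the highest library of either group, and the groups overlapped over most of their range. The means were 58.1 ± 12.5 CPM (SD, n = 3) and 64.7 ± 13.98 CPM (SD, n = 3), a log2 fold change of -0.19 with a 95% interval from -0.57 to 0.18 (adjusted p = 0.889 by edgeR). The spread of Cnr1 over the 6 libraries was 20.2% of its mean, where counting error alone gives 4.03%. Without WAS replicates 1 and 3, the libraries low in striatal markers, the log2 fold change of Cnr1 was 0.11. Single libraries of both groups also moved it, to -0.0026 without control replicate 2, to -0.071 without WAS replicate 1 and to -0.38 without WAS replicate 2 (adjusted p = 0.252 by edgeR). The part of the region markers in the level of Cnr1 was not tested.

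Among 8051 genes with a mean level of at least 0.25 times that of Cnr1, the genes whose mean-centred log2 levels lay closest to those of Cnr1 over the 6 libraries were Sun1, Ppapdc2 and Ptprj. Their root mean square differences from Cnr1 were 0.054, 0.065 and 0.077 on the log2 scale, against 0.28 for the median candidate. Sun1, which encodes a protein of the nuclear envelope, had 43.1, 63.7 and 46.2 CPM in the libraries labelled WAS. It had 56.0, 69.7 and 50.3 CPM in the control libraries. Replicate 2 was again the highest of each group, a likeness built into the choice of this gene.

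Dagla and Daglb encode the diacylglycerol lipases alpha and beta, which cut diacylglycerol to form 2-AG. Diacylglycerol lipase alpha is the form that makes most of the 2-AG used at neuronal synapses, and Daglb is known for its role in microglia and macrophages. Dagla (chromosome 19, 10245265 to 10304877) was at 57.7, 68.8 and 60.3 CPM in WAS replicates 1, 2 and 3 and at 74.7, 69.0 and 56.1 CPM in the control replicates. The highest and the lowest of the 6 values were both in control libraries, and the log2 fold change was -0.13 (95% interval -0.39 to 0.12, adjusted p = 0.884 by edgeR). It was 0.0067 without WAS replicates 1 and 3 and from -0.24 to -0.053 with 1 library left out, the extremes being without control replicates 3 and 1. Daglb (chromosome 5, 143464484 to 143504442) was at 26.8, 33.3 and 25.6 CPM in the libraries labelled WAS and at 26.8, 32.9 and 23.0 CPM in the control libraries. The fitted difference on the log2 scale was 0.017 (95% interval -0.32 to 0.36, adjusted p = 0.992), and the sign turned on leaving out WAS replicate 2 (-0.11) or either of control replicates 1 (-0.012) and 3 (-0.091). Dagla gave between 67.4% and 73.6% of the summed Dagla and Daglb counts of a library, with 95% Wilson intervals of 64.3% to 70.3% for the lowest share and 70.9% to 76.2% for the highest. These intervals cover counting error only. The mean Dagla share was 68.6% ± 1.42 (SD, n = 3) in the libraries labelled WAS and 70.8% ± 2.96 (SD, n = 3) in the control libraries, and the shares overlapped.

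Mgll encodes monoacylglycerol lipase, which removes most of the 2-AG of the brain and yields arachidonic acid, the precursor of prostaglandins. It lies on chromosome 6 (88724412 to 88828360). Its level was 251, 277 and 209 CPM in WAS replicates 1, 2 and 3, against 324, 321 and 305 CPM in control replicates 1, 2 and 3. The raw counts behind these levels were 2528, 2561 and 2086 against 3402, 3335 and 3043. Every library labelled WAS lay below every library labelled control, which held in this direction for 573 of the genes tested (3.76%), and in either direction for 1856 genes (12.2%). Mgll was thus 1 of 8 members without overlap, a share near that of all genes. The means were 246 ± 34.3 CPM (SD, n = 3) and 317 ± 10.3 CPM (SD, n = 3). The log2 fold change was -0.40 with a 95% interval from -0.63 to -0.18, an unadjusted p of 0.00229 and an adjusted p of 0.498 by edgeR's quasi-likelihood test. In this bulk RNA, fewer cells that express a gene and less of its RNA per cell cannot be told apart.

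The difference in Mgll kept its sign in each of the 13 alternative analyses, at log2 fold changes from -0.50 to -0.23, with adjusted p-values from 0.00947 to 0.9998. The smallest adjusted p was that of edgeR without WAS replicate 2, and the smallest difference was that of WAS replicate 2 alone against the controls. In that library the thalamic and midbrain markers were within the control range and the striatal markers above it. The summed projection neuron markers were also lower in all 3 libraries labelled WAS. Per 1000 CPM of these markers, Mgll stood at 78.9, 94.5 and 74.99 CPM in WAS replicates 1, 2 and 3 and at 90.1, 88.8 and 87.0 CPM in the controls, and on this scale the groups overlapped. The part of the projection neuron markers in the level of Mgll was not tested.

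**Figure D2:**
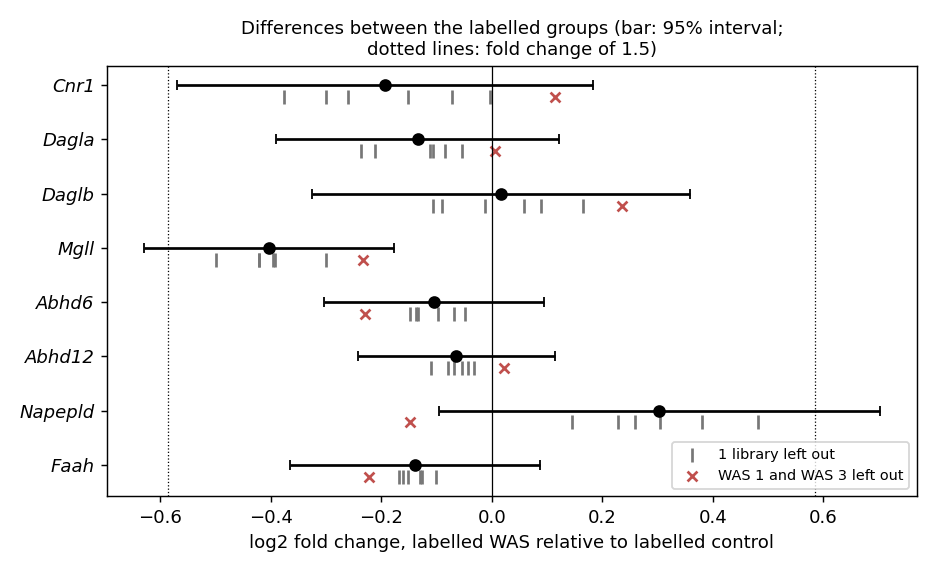
Log2 fold change of each gene in the libraries labelled WAS relative to those labelled control (black points, bars are 95% intervals from the edgeR fit). Grey ticks are the fits that each left out 1 library and red crosses those without WAS replicates 1 and 3. The interval lies wholly below 0 for Mgll, from -0.63 to -0.18, and spans 0 for the other 7 genes.

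By the same measure of likeness, the 3 genes closest to Mgll among 2975 candidates were Sept5, Gp1bb and Pip5k1c, at root mean square differences of 0.039, 0.041 and 0.048 on the log2 scale against 0.25 for the median candidate. The annotated exons of Sept5 and Gp1bb overlap and their counts were nearly equal in each library, so they cannot be taken as separate genes here. Pip5k1c, whose kinase makes the membrane lipid PIP2 at synapses, had 137, 144 and 118 CPM in the libraries labelled WAS and 170, 170 and 172 CPM in the control libraries. As with Mgll, WAS replicate 3 was its lowest library, a likeness built into the choice of this gene.

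One promoter is shown because Mgll was the member whose labelled groups did not overlap. It spans the 250 bases before and 50 bases after an annotated start, chr6:88724162-88724461 on the plus strand of GRCm38.p6, and is taken from RefSeq. Capitals mark, in this order, a single arm of the glucocorticoid receptor element and an E-box.

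Mgll: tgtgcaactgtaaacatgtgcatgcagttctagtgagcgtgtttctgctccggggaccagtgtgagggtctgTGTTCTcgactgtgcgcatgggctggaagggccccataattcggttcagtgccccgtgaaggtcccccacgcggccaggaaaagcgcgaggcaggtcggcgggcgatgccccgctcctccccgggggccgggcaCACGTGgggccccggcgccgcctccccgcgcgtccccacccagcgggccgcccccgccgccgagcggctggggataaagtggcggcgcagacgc

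Both strands of 32817 promoter windows of this length were searched for 4 motifs. The single arm TGTTCT was present in 19% of all windows, the E-box CACGTG in 7.15%, the cyclic AMP response element TGACGTCA in 1.79% and the full palindromic glucocorticoid receptor element, which contains the single arm, in 3 windows (0.00914%). Of the 8 members, 6 had windows in the RefSeq table, 10 windows in all, and those without were Dagla and Abhd12. The single arm was found in the first window of Mgll and at 2 places in the window of Faah, and the E-box in the first window of Mgll and in 1 of 3 windows of Cnr1. Neither of the other 2 motifs was found in the 10 windows. A match of this kind describes the letters only.

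Abhd6 and Abhd12 encode the serine hydrolases that degrade most of the 2-AG left by monoacylglycerol lipase, Abhd6 facing the inside of the cell and Abhd12 the outside. Abhd12 is also known as a lysophosphatidylserine lipase of the brain. Abhd6 (chromosome 14, 8002888 to 8056773) was at 89.8, 79.3 and 89.5 CPM in WAS replicates 1, 2 and 3 and at 92.6, 84.7 and 93.8 CPM in the controls, with replicate 2 the lowest of each group. Its log2 fold change was -0.10 (95% interval -0.30 to 0.095, adjusted p = 0.883 by edgeR). Abhd12 (chromosome 2, 150832493 to 150904779) was at 147, 164 and 152 CPM in the libraries labelled WAS and at 156, 162 and 155 CPM in the control libraries. It varied least of the 8 genes, with a spread over the 6 libraries of 4.00% of its mean against 2.53% from counting alone. Its log2 fold change was -0.064, and the interval of -0.24 to 0.11 leaves room for a fold change between 0.845 and 1.08. Without WAS replicates 1 and 3 the value was 0.022, and with 1 library left out it ranged from -0.11 without WAS replicate 2 to -0.032 without WAS replicate 1.

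**Figure D3:**
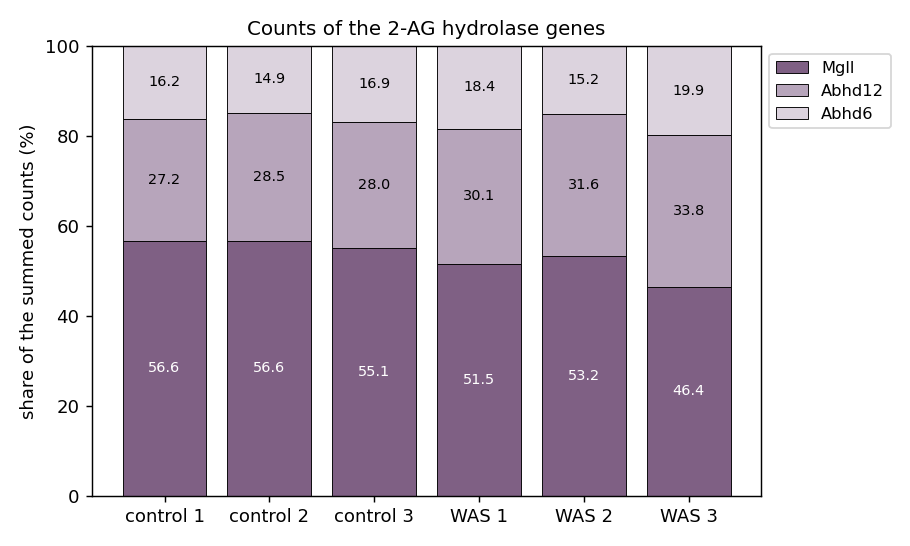
Share of Mgll, Abhd12 and Abhd6 in their summed counts, in percent, for each library (1 bar a library, all bars end at 100). The Mgll share is 55.1% to 56.6% in the libraries labelled control and 46.4% to 53.2% in those labelled WAS.

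Within this hydrolysis step, Mgll gave 51.5%, 53.2% and 46.4% of the summed counts of the 3 hydrolases in the 3 WAS libraries, against 56.6%, 56.6% and 55.1% in the controls. The lowest control share had a 95% Wilson interval of 53.8% to 56.4%, and the highest WAS share one of 51.8% to 54.6%, and these intervals overlapped. The Abhd12 share was 30.1% to 33.8% in the libraries labelled WAS and 27.2% to 28.5% in the controls, while the Abhd6 shares overlapped. The hydrolase counts exceeded the synthase counts of Dagla and Daglb in every library, by 5.77, 5.10 and 5.24 times in replicates 1, 2 and 3 of the WAS group and by 5.64, 5.57 and 7.001 times in the controls, and these ratios overlapped.

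Napepld encodes the phospholipase D that releases anandamide, palmitoylethanolamide and other N-acylethanolamines from membrane precursors. It lies on chromosome 5 (21662901 to 21701622) and was at 23.7, 16.4 and 27.0 CPM in WAS replicates 1, 2 and 3 and at 19.8, 17.7 and 15.6 CPM in the controls. WAS replicates 1 and 3 were above all controls, and WAS replicate 2 lay among them. The means were 22.4 ± 5.43 CPM (SD, n = 3) and 17.7 ± 2.09 CPM (SD, n = 3), a log2 fold change of 0.30 (95% interval -0.095 to 0.70, adjusted p = 0.779 by edgeR). Both libraries with high Napepld were those with high thalamic and midbrain markers. With them left out the log2 fold change was -0.15, without WAS replicate 3 alone it was 0.15, and without WAS replicate 2 it was 0.48 (adjusted p = 0.133 by edgeR). The part of the region markers in the level of Napepld was not tested.

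Faah encodes fatty acid amide hydrolase, which ends the action of anandamide and also breaks down palmitoylethanolamide and N-acyl taurines. It lies on chromosome 4 (115996668 to 116018837), and its levels were 33.2, 30.9 and 33.96 CPM in the WAS libraries against 36.2, 35.5 and 33.7 CPM in the controls. The groups overlapped by 1 pair of libraries, WAS replicate 3 and control replicate 3. The log2 fold change was -0.14 (95% interval -0.37 to 0.087, adjusted p = 0.846 by edgeR), which leaves room for a fold change between 0.776 and 1.06. The spread of Faah over the libraries, 5.45% of its mean, was close to the 5.42% that counting alone gives. There were 1.40, 1.88 and 1.26 counts of Faah for each count of Napepld in the WAS libraries, and the controls had 1.83, 2.00 and 2.15, with WAS replicate 2 inside the control range.

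**Figure D4:**
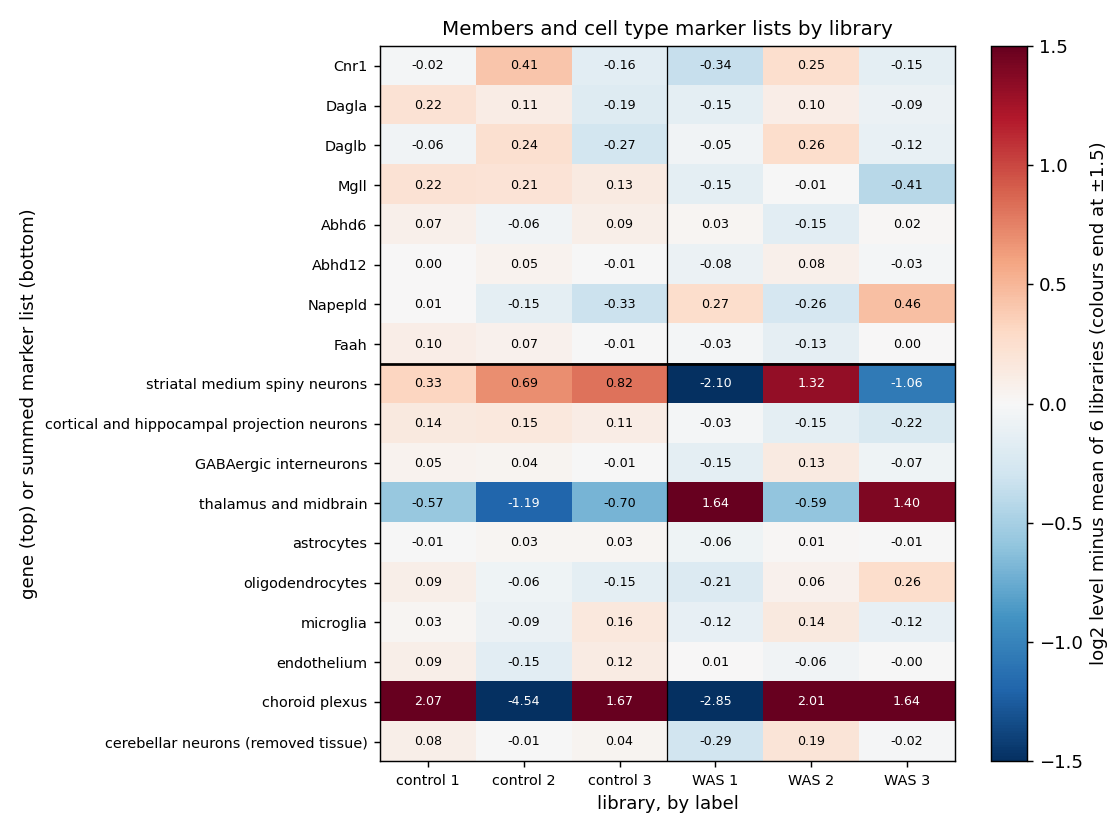
Log2 level of each of the 8 genes (top) and of the summed markers of each cell type list (bottom) in each library, minus the mean over the 6 libraries. WAS replicates 1 and 3 are low in striatal markers (-2.10 and -1.06) and high in thalamic and midbrain markers (1.64 and 1.40), while the values of the 8 genes stay between -0.41 and 0.46.

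A further 45 genes of the pathway were listed in 4 groups, of which 39 were tested. Their log2 fold changes were above 0 for 20 genes and below 0 for 19, with a median of 0.00070 beside 0.00088 for all genes. An unadjusted p under 0.05 was reached by 3 of the 39, Gprasp1, Plcb1 and Plce1, a share near the 7.24% of all genes tested, and 0 passed an adjusted p of 0.05 by edgeR. The labelled groups did not overlap for 3 of the 39, Cnrip1, Plce1 and Fabp5, all higher in the libraries labelled WAS. Among all genes tested this held for 1856 (12.2%), of which only 573 were lower in the libraries labelled WAS.

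Of the 17 other receptors and partners of CB1, 13 were tested, with 4 above and 9 below a log2 fold change of 0 and a median of -0.099. Cnr2, which encodes the CB2 receptor of immune cells, had 0 counts in each library labelled WAS and 0, 5 and 3 counts in the controls. A count of 0 allows up to 3 counts, or 0.298 to 0.324 CPM in the libraries labelled WAS. Gpr119 had 0 counts throughout, and Gpr55 and Trpv1, the capsaicin receptor that anandamide also opens, had at most 2 counts in a library. A gene at 0 in these tables need not lack transcripts, since Drd2 was near 0 throughout while Drd1, the other main striatal dopamine receptor gene, was at 34.8 to 365 CPM. The most abundant of this group were Gnao1, a G protein subunit through which CB1 signals, at 1435 ± 105 CPM in the libraries labelled WAS against 1482 ± 64.2 CPM in the control libraries (SD, n = 3), and Gprasp1. Cnrip1, whose product binds the intracellular tail of CB1, was at 89.7 ± 3.23 CPM in the libraries labelled WAS against 77.3 ± 1.94 CPM in the control libraries (SD, n = 3), and the fitted log2 fold change was 0.18 with a standard error of 0.083.

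Gprasp1, which encodes a protein that sorts receptors such as CB1 to lysosomes, was at 759, 596 and 710 CPM in WAS replicates 1, 2 and 3 and at 539, 549 and 620 CPM in the controls. Its log2 fold change was 0.24 (standard error 0.10, unadjusted p = 0.0430 by edgeR), and WAS replicate 2 lay below control replicate 3. The log2 fold change was 0.024 without WAS replicates 1 and 3. In the edgeR fits with 1 library left out, the unadjusted p stayed under 0.05 without WAS replicate 2 (0.00268) or control replicate 3 (0.0198) and not in the others.

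All 10 phospholipases C, enzymes that supply the diacylglycerol for 2-AG, were tested, with 6 higher and 4 lower and a median log2 fold change of 0.12. Plcb1 and Plcb4, the isoforms that metabotropic glutamate and muscarinic receptors engage through Gq, were the most abundant. Plcb1 was at 303, 434 and 284 CPM in WAS replicates 1, 2 and 3 and at 423, 463 and 406 CPM in the controls. Its log2 fold change was -0.38 (standard error 0.14, unadjusted p = 0.0222 by edgeR) and -0.026 without WAS replicates 1 and 3, with WAS replicate 2 inside the control range. Without WAS replicate 2 it was -0.59, the only case in which a gene of the 4 lists passed an adjusted p of 0.05. Plcb4 was at 44.3 ± 8.03 CPM in the libraries labelled WAS and 41.4 ± 6.81 CPM in the control libraries (SD, n = 3).

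Plce1, which encodes a phospholipase C that Ras-family proteins regulate, was at 17.7, 15.1 and 23.8 CPM in WAS replicates 1, 2 and 3 and at 10.6, 10.3 and 14.4 CPM in the controls, without overlap. Its log2 fold change was 0.65 (standard error 0.20, unadjusted p = 0.00903 by edgeR), the only one of the 4 lists to meet the fold change of at least 1.5 with an unadjusted p under 0.05, which 2.49% of all genes tested met. It fell outside these criteria when WAS replicate 3 (0.44) or either of control replicates 1 (0.56) and 2 (0.56) was left out, and was 0.32 without WAS replicates 1 and 3.

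**Figure D5:**
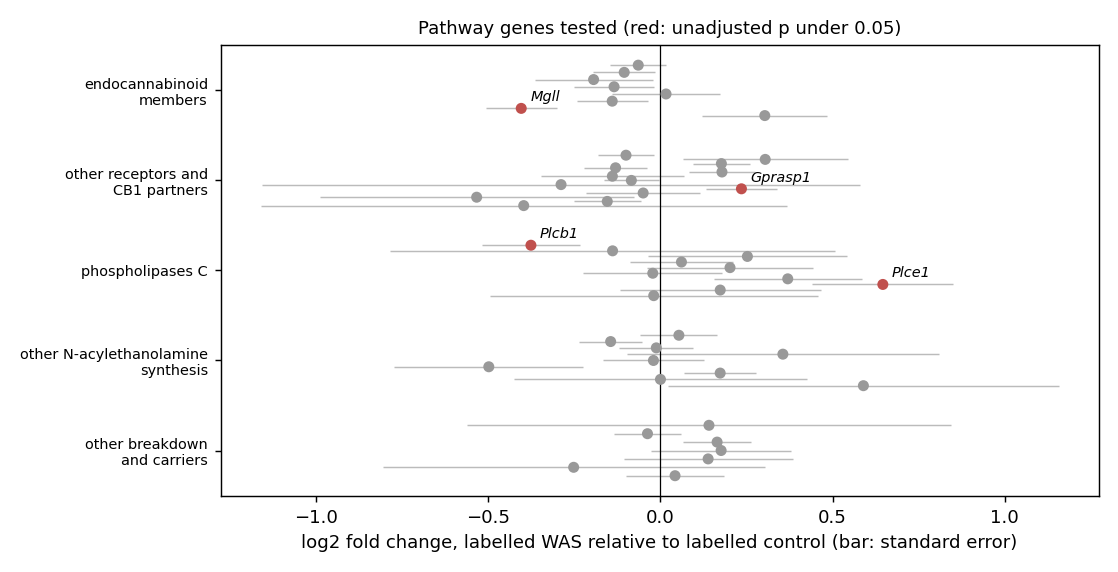
Log2 fold changes, labelled WAS relative to labelled control, of the 8 endocannabinoid genes and the 39 tested genes of 4 further pathway lists, with bars of 1 standard error. Red points have an unadjusted p under 0.05 (Mgll, Gprasp1, Plcb1 and Plce1), and points lie on both sides of 0 in each list.

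Of 10 other enzymes of N-acylethanolamine synthesis, 9 were tested, 5 higher and 4 lower with a median of 0.00070, and none had an unadjusted p under 0.05. Gde1, a glycerophosphodiesterase of the route that bypasses Napepld, was at 189 ± 15.4 CPM in the libraries labelled WAS and 204 ± 16.4 CPM in the control libraries (SD, n = 3), above Napepld in level in both groups. Gdpd1 was at 66.6 ± 7.59 CPM and 65.4 ± 4.03 CPM (SD, n = 3) in the same order. Hrasls5 had 0 counts in all 6 libraries.

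Of 8 genes of other breakdown, oxidation and carriers, 7 were tested, 5 higher and 2 lower with a median of 0.14, and none had an unadjusted p under 0.05. The most abundant were the fatty acid binding protein genes Fabp5, whose product carries anandamide inside cells, at 105 ± 10.8 CPM in the libraries labelled WAS and 91.3 ± 6.57 CPM in the control libraries (SD, n = 3), and Fabp3 at 69.7 ± 1.97 CPM and 69.7 ± 7.27 CPM (SD, n = 3). The fitted log2 fold change of Fabp5 was 0.17, with a standard error of 0.099. Naaa, the acid amidase that prefers palmitoylethanolamide, was at 13.3 ± 4.30 CPM and 11.7 ± 1.94 CPM (SD, n = 3).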

How the data were processed

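RNA-seq libraries of 3 mice labelled WAS and 3 labelled control were analysed. The authors sequenced single-end reads of 75 bp, aligned them with Bowtie2, and derived gene counts from both uniquely and multiply aligned reads by bedtools coverage. Their processing notes name mm10. The deposited values are raw read counts per gene symbol, and 44 entries repeat a symbol. The strand used in counting, the tool versions and the gene annotation are not given in the sources used here.

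From these counts, CPM were computed on library totals. Genes with a mean log2(quantile-normalized count + 1) of at least 2 were scaled by TMM (factors 0.976 to 1.01) and tested with edgeR 4.0.16 in R 4.3.3 without a replicate term, with Benjamini-Hochberg adjustment over all genes tested. Fold changes and 95% intervals come from that fit, and the prior count for log2 levels was 2. The procedure was tested on simulated data. DESeq2 1.42.0 and limma 3.58.1 were alternatives.

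Members and lists were chosen with earlier results of these data known. The motifs, the ratio of Mgll to projection neuron markers and the analysis without WAS replicates 1 and 3 were chosen after seeing the data. All 8 members are named, with the 2 most abundant genes of each pathway list, those with an unadjusted p under 0.05, and the 3 patterns nearest to Cnr1 and Mgll. Receptor genes near 0 counts, single marker genes, Cnrip1, Hrasls5 and Naaa were named after their values were seen. Coordinates are from RefSeq and transcript ends from GENCODE M21, both on GRCm38. The p-values measure the spread between these 6 mice.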

Additional observations from a re-analysis of the deposited data

How the results depend on the processing

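The 13 alternatives were total-count scaling, DESeq2, limma on quantile-normalized values, 2 other filters on low counts, the replicate block, each of the 6 libraries left out, and WAS replicates 1 and 3 left out together, which leaves WAS replicate 2 alone and assumes that it varies like the controls. Abhd6, Faah and Mgll kept their direction in all 13. With 1 library left out, Mgll ranged from -0.50 to -0.30, past adjusted p 0.05 without WAS replicate 2, and Daglb from -0.11 to 0.17. Without WAS replicates 1 and 3 the log2 fold change turned to 0.11 for Cnr1, 0.0067 for Dagla, 0.022 for Abhd12 and -0.15 for Napepld. The cause was not tested. Genes past adjusted p 0.05 numbered 0 with edgeR (1104 at an unadjusted p under 0.05), 31 with DESeq2, 1 without WAS replicates 1 and 3, and 0 to 484 with 1 library left out. Genes past the criteria of fold and unadjusted p numbered 380, and 261 to 831 with 1 library left out, the most without WAS replicate 2. Of the other pathway genes, 3 had an unadjusted p under 0.05, 5 with total-count scaling, 0 without WAS replicates 1 and 3, and 0 to 9 with 1 library left out. The criteria were met by 1 of these genes, by 0 without WAS replicates 1 and 3, and by 0 to 4 with 1 library left out, and an adjusted p of 0.05 by 0, and by 0 to 1 with 1 library left out.

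The replicate block gave 49 genes past adjusted p 0.05 in place of 0 and changed the call of no member. Deviations of same-numbered libraries from their group means correlated at 0.066, 0.085 and 0.087 over genes, and each library correlated best with its own number, but the labels name nothing that the numbers share. Depth limits what can be said of genes near 3 counts, such as Cnr2.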
